A study of Homo sapiens with 12 samples.

Results

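Read counts of 3 SDC3-knockout and 3 wild-type libraries, all from cells given interferon gamma (IFN-γ), were compared across the 17119 genes, of 58051 in the deposited table, that passed a filter on low counts. The 6 libraries belong to a series of 12. The other 6, of the same genotypes without IFN-γ, entered the fit and are shown where a difference had to be set beside its counterpart. The cells were THP-1, an established human monocytic leukaemia line, and all 4 groups had first been turned into macrophage-like cells with 20 ng/ml phorbol ester (PMA) for 24 h and then kept in fresh medium. Recombinant human IFN-γ was added the following day to 2 of the groups. The knockout was made with CRISPR/Cas9. How much IFN-γ was used and for how long, where the gene was edited, how many edited lines there were and whether they were clones is not given in the sources used here. The labels do not say that the libraries of 1 group came from separate cultures. The p-values therefore measure the spread between these libraries, and that spread may be technical.

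Syndecan-3, the product of SDC3, is a transmembrane proteoglycan whose heparan sulphate chains bind chemokines, growth factors and other proteins at the cell surface. IFN-γ acts through the IFNGR1 and IFNGR2 receptor chains and the kinases JAK1 and JAK2, and in macrophages it raises antiviral, antigen-presenting and chemokine genes. PMA-treated THP-1 cells largely leave the cell cycle, so genes of DNA replication and mitosis mark the cells that still divide. In bulk RNA, fewer cells of a type and less RNA per cell cannot be told apart.

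The 6 libraries held 24822479 to 29426415 assigned counts each. SDC3 itself (chromosome 1, 30869467 to 30908761, minus strand, hg38) stood at 237, 237 and 244 CPM in knockout libraries and 578, 590 and 572 CPM in wild-type libraries (counts-per-million, CPM, on library sizes scaled by TMM). Each knockout value was below every wild-type value, but the transcript was still present (log2 difference, knockout minus wild type, -1.28, SE 0.06, adjusted p = 3.4e-18, edgeR's quasi-likelihood test). These counts check the direction of the labels and do not measure the protein. Of 12 monocyte and macrophage markers 11 averaged at least 1 CPM in the 6 libraries, and their summed level ranged from 8982 to 9264 CPM in the knockout and from 9697 to 9748 CPM in the wild type. CD14 (log2 difference -0.06, adjusted p = 0.26), CSF1R (0.06, 0.14) and the myeloid master regulator gene SPI1 (-0.01, 0.93) were not called, and their replicates overlapped, but CD14 was called lower without scaling (-0.14). Of the 12 markers 3 were higher, among them PTPRC (0.54) and FCGR1A (0.40), and 5 were lower, among them CD4 (-0.70) and TYROBP (-0.40). CD68 had only 10 counts in all knockout libraries and 21 in all wild-type libraries. Of its exon bases 85.8% also belong to exons of another gene, and the count file's header names no option that would count reads shared by several genes. Among markers of other cell types, those of B cells summed to 8.47 to 10.4 CPM in the knockout against 25.3 to 28.6 CPM in the wild type, with the defining MS4A1 at 0 in all 6 libraries. Those of dendritic cells summed to 20.7 to 23.2 against 10.6 to 13.9 CPM, through CD1C and LAMP3, with CLEC4C and FCER1A at 0. Those of fibroblasts summed to 16.7 to 20.2 against 8.26 to 10.1 CPM, through COL1A1, with DCN and LUM at 0. T-cell markers summed to at most 1.26 CPM. The part of these markers in the results was not tested.

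A gene was called at an adjusted p under 0.05, and this was met by 47.2% of the 17119 genes (8072). The knockout was higher for 22.9% of tested genes (3919) and lower for 24.3% (4153). A log2 difference of at least 1 was reached by 2.18% upwards and 7.15% downwards. The median log2 difference over all genes was -0.01. Genes higher were 48.6% of the calls with TMM scaling and 35.6% with library totals alone. Without IFN-γ 50.1% of genes were called, 25.4% higher and 24.8% lower. The comparisons with and without IFN-γ share no library, and 5689 genes were called in both with the same sign, 70.5% of the calls with IFN-γ and 66.3% of those without it. Opposite signs were found for 255 genes. The difference of the 2 genotype effects, tested as an interaction, was called for 15.5% of genes, 7.61% upwards and 7.86% downwards, and 1900 of the 8072 calls with IFN-γ were among them. The counts of each gene list below are to be read against these shares. Of the 10804 genes at 5 CPM or more in either genotype with IFN-γ, 6220 were called with replicates that did not overlap. Genes named from the lists were chosen by that rule, so the lack of overlap given for them is not a separate result.

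**Figure D1:**
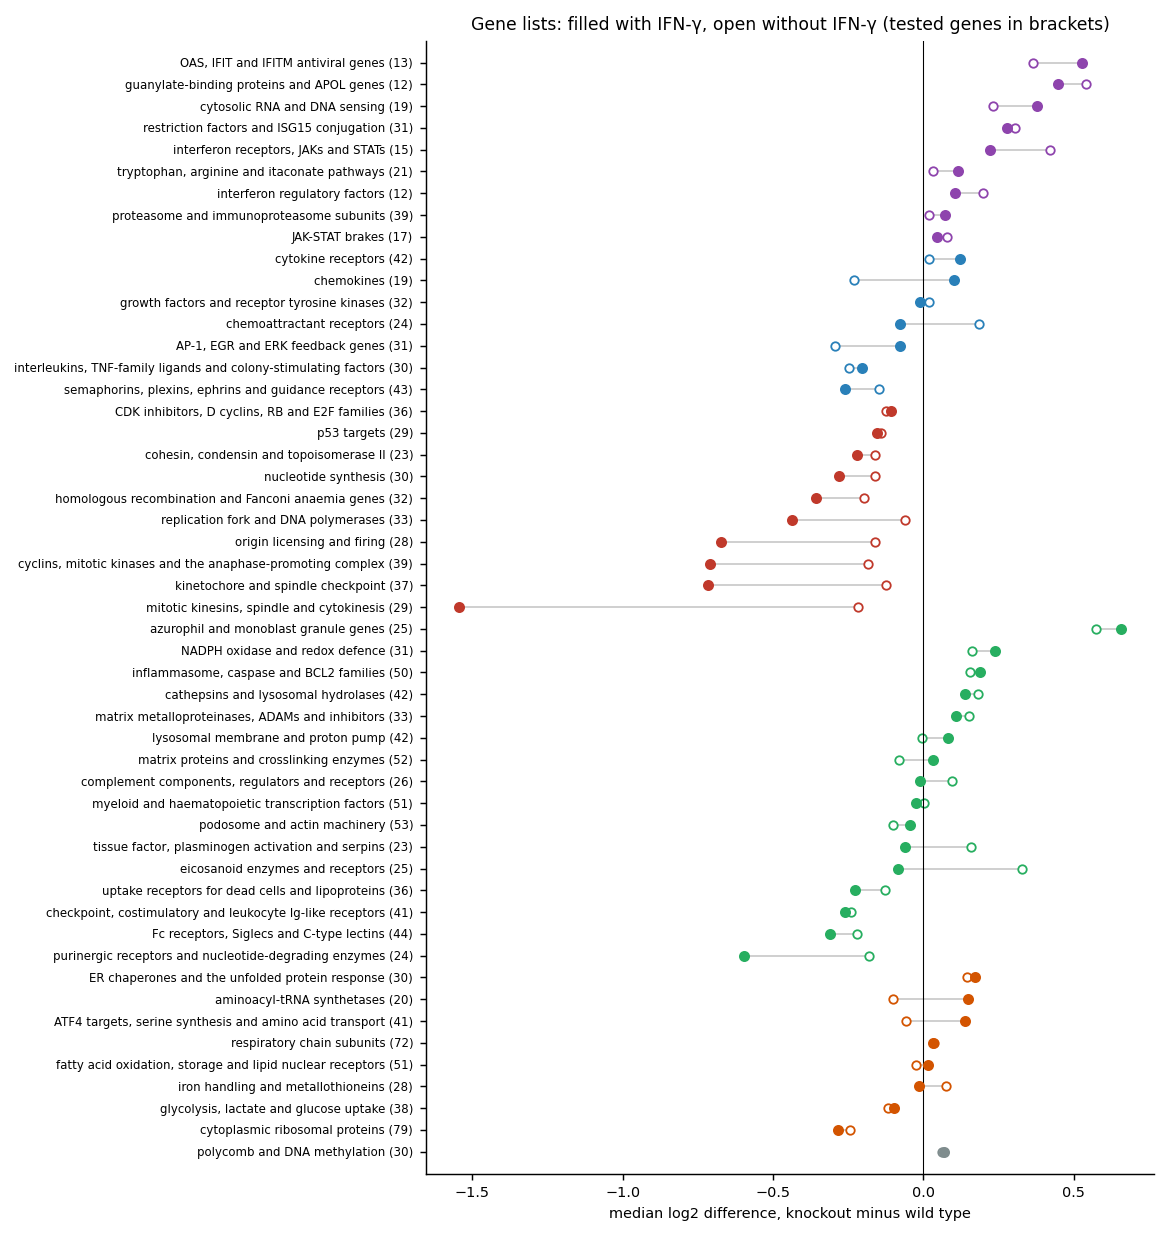
Median log2 difference, knockout minus wild type (horizontal axis), of the tested members of each of 51 gene lists (rows), with IFN-γ as filled and without IFN-γ as open points. The mitotic kinesin list lies farthest left with IFN-γ at -1.54 against -0.22 without it, and the antiviral and guanylate-binding protein lists lie to the right of 0 in both treatments.

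Genotype differences also ran along chromosomes. Tested genes were cut in genome order into 340 blocks of about 50, and the block medians of the log2 difference with IFN-γ ranged from -0.57 to 0.57. A median of at least 0.25 was found in 16 blocks, all of which were also at or above 0.25 without IFN-γ. A median of at most -0.25 was found in 32 blocks, 21 of which were there without IFN-γ as well. Chromosome 1 held 8 of the higher blocks between 145866560 and 175192999, with 243 of 400 genes called higher and 33 lower. All 4 blocks of chromosome 21 were higher, with 113 of 184 genes called higher. All 5 blocks of chromosome 18 were lower, with 149 of 245 genes called lower. Lower blocks were 10 of 18 on chromosome 12 and 6 of 21 on chromosome 17. They were 5 of 9 on chromosome 20 and 4 of 19 on chromosome 3. Chromosome 19 held 4 higher and 2 lower blocks. Where a gene named below lies in such a block, the median of the block's other genes is given beside it, and how far the neighbourhood accounts for the gene's value was not tested.

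**Figure D2:**
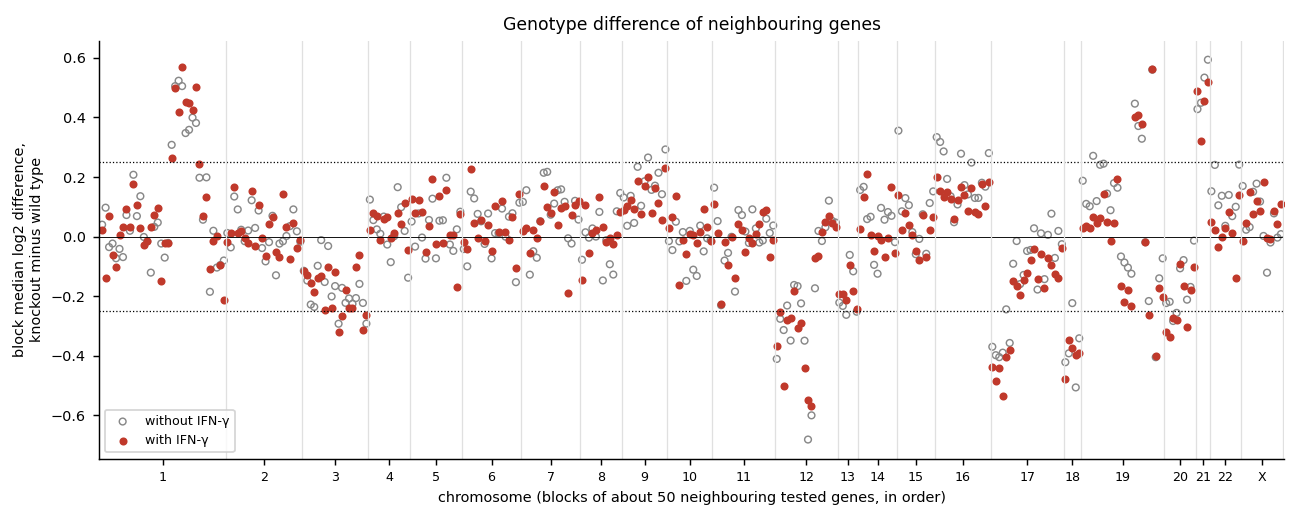
Median log2 difference, knockout minus wild type (vertical axis), of blocks of about 50 neighbouring tested genes in order along the chromosomes (horizontal axis), with IFN-γ (filled) and without it (open). The dotted lines mark 0.25 and -0.25; the runs on chromosomes 1, 12, 17, 18 and 21 stand on the same side in both treatments.

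The interferon receptors and their kinases and STATs were mostly higher in the IFN-γ-treated knockout. Of 15 tested members 9 were higher and 4 lower, with a median log2 difference of 0.22. STAT4 averaged 25.1 ± 2.79 CPM in knockout and 11.5 ± 1.35 CPM in wild-type libraries (SD, n = 3; log2 difference 1.12). The receptor chains IFNAR1 (0.76) and IFNGR2 (0.55) rose within the chromosome 21 run, where the median of their block was 0.31. STAT6, which carries the interleukin-4 signal, fell (-0.68) within a chromosome 12 block with a median of -0.54, and STAT2 was at -0.28 in one at -0.46.

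Among the 12 interferon regulatory factors 5 were higher and 2 lower, and 3 were higher when KO_IFNG replicate 1, a knockout library with IFN-γ, was left out (WT_IFNG names the wild type). IRF1, a transcription factor gene that drives later interferon genes, averaged 1416 ± 29 CPM in knockout and 1212 ± 18.4 CPM in wild-type libraries (0.22, SE 0.03, adjusted p = 2.4e-06). Its genotype difference without IFN-γ was larger, at 0.70 (test of the difference -0.47, SE 0.05, adjusted p = 7.2e-08). With IFN-γ IRF7 was at 0.42, while IRF5 (-0.31) and IRF8 (-0.18) fell. For IRF8 the genotype difference without IFN-γ had the other sign (0.53, adjusted p = 3.4e-11; test of the difference -0.71, SE 0.07, adjusted p = 8.1e-10). CIITA, which switches on MHC class II genes, stood at 194, 191 and 194 CPM in knockout and 275, 277 and 257 CPM in wild-type libraries. It was lower in every knockout library (log2 difference -0.48, SE 0.06, adjusted p = 1.3e-08). The JAK-STAT brakes had 6 of 17 members higher and 3 lower. USP18, the ISG15 protease that damps type I interferon receptors, led them at 24.0 ± 2.00 CPM in knockout and 9.76 ± 0.885 CPM in wild-type libraries (log2 difference 1.30), followed by SOCS2 (0.93).

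Antiviral effector genes were mostly higher in the knockout. Of 56 tested members of 3 lists (the OAS, IFIT and IFITM genes, restriction factors with the ISG15 pathway, and guanylate-binding proteins with APOL genes) 44 were higher and 4 lower, and the median log2 difference was 0.39. Their summed level was 27390, 28030 and 27560 CPM in the knockout and 20410, 20340 and 21030 CPM in the wild type. The same sums without IFN-γ were far lower, at 2982 to 2999 CPM in the knockout and 2352 to 2434 CPM in the wild type. In both treatments the knockout sums lay above the wild-type sums. The median log2 difference without IFN-γ was 0.34. The test of the difference was called upwards for 17 of the 56 genes and downwards for 11. Only 4 of the 56 genes lie in the higher or lower chromosome blocks, and of the other 52 genes 42 were higher.

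Among members at 5 CPM or more the largest rise was that of RSAD2, which encodes viperin, an enzyme that makes a chain-terminating nucleotide. RSAD2 (chromosome 2, 6865806 to 6898239, plus strand) stood at 476, 497 and 482 CPM in knockout libraries and 115, 113 and 125 CPM in wild-type libraries. Every knockout library was far above every wild-type library (2.04, SE 0.06, adjusted p = 6.7e-23). Its neighbour CMPK2, a mitochondrial nucleotide kinase gene, averaged 127 ± 4.98 CPM in knockout and 61.3 ± 1.93 CPM in wild-type libraries (1.05, SE 0.07, adjusted p = 1.8e-14). MX1, a GTPase gene that blocks viral replication complexes, stood at 648, 646 and 634 CPM in knockout and 225, 231 and 222 CPM in wild-type libraries. It was higher in each knockout library (1.51, SE 0.05, adjusted p = 1.6e-20), within a chromosome 21 block with a median of 0.43. The MX1 difference without IFN-γ was 2.07 (test of the difference -0.56, SE 0.13, adjusted p = 0.0024). IFITM1, which hinders fusion of viral and cell membranes, stood at 200, 192 and 193 CPM in knockout and 90.7, 87.0 and 84.7 CPM in wild-type libraries. Its log2 difference was 1.16, SE 0.06, adjusted p = 1.5e-16, and it was smaller than the 2.15 seen without IFN-γ (test of the difference -0.9966, SE 0.24, adjusted p = 0.0038). All 12 OAS, IFIT and IFITM genes called were higher, the other member was not called, and the list's median was 0.53.

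All 12 tested guanylate-binding protein and APOL genes were higher, with a median of 0.45. GBP4, a GTPase gene of the guanylate-binding family, stood at 2705, 2770 and 2779 CPM in knockout and 1539, 1509 and 1651 CPM in wild-type libraries. The 3 knockout values lay well above the 3 wild-type values (0.81, SE 0.03, adjusted p = 1.5e-18). The GBP4 difference without IFN-γ was 1.23 (test of the difference -0.42, SE 0.06, adjusted p = 6.5e-06). APOL1 averaged 510 ± 7.19 CPM in knockout and 299 ± 3.38 CPM in wild-type libraries (0.77). Among the restriction factors, SLFN11 (-0.57) and SLFN5 (-0.20), Schlafen genes of chromosome 17, were lower. Members of the GBP, IFITM and APOL families are similar in sequence, so the division of reads within a family is uncertain.

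The 250 bases before RefSeq transcript starts of these genes were searched for a pattern of the kind that interferon-activated factors bind. RefSeq promoter windows (GRCh38.p14) were found for 34 of the 56 genes, giving 42 windows. The letters GAAANNGAAA, on either strand, occurred in 45.2% of those windows and in 2.55% of 16647 windows of the tested genes. All tested members of the lists were searched whatever their genotype difference, so these shares describe the lists and not the knockout. Windows of RSAD2, MX1, IFITM1 and CMPK2, genes among the largest rises of these lists, were examined. Those of RSAD2 and IFITM1 are shown because they held a match, with GAAANNGAAA or its reverse complement in capitals. The 150 bases before a RefSeq transcript start of RSAD2 (plus strand, chr2:6877627-6877776) and of IFITM1 (plus strand, chr11:313890-314039) read as follows. Both lie inside the gene's span in the count table, which begins further upstream.
RSAD2: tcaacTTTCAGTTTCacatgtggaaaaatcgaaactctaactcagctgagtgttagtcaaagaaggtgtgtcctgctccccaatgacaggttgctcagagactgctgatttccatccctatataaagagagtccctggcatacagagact
IFITM1: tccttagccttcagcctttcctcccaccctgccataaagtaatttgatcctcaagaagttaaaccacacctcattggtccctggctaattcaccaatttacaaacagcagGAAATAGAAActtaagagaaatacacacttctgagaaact
None of the 3 windows of MX1 and the 3 of CMPK2 held such letters in these 150 bases. A match is a description of the letters and not a site measured here, and where a gene had several windows the one with most matches is shown (RSAD2 had 2).

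Sensors of foreign nucleic acid were mostly higher, with 13 of 19 higher and 2 lower (median 0.38). PYHIN1 (43.6 ± 3.46 CPM in knockout and 12.8 ± 0.318 CPM in wild-type libraries; log2 difference 1.77), AIM2 (0.91) and MNDA (0.88), 3 neighbours on chromosome 1 whose products carry DNA-binding HIN domains, lie in a block with a median of 0.42. Outside the higher and lower blocks 8 of 11 sensors were higher and 0 lower. The kinase TBK1 (-0.44) fell in a chromosome 12 block at -0.58, and the adaptor gene MAVS (-0.40) in a chromosome 20 block at -0.32. Proteasome and immunoproteasome subunits had 12 of 39 higher and 6 lower. The 6 lower became 3 without KO_IFNG replicate 2, KO_IFNG replicate 3 or WT_IFNG replicate 2. In the tryptophan, arginine and itaconate pathways 9 of 21 were higher and 5 lower. IDO1, the enzyme that starts tryptophan breakdown, averaged 8.18 ± 1.68 CPM in knockout and 4.45 ± 0.760 CPM in wild-type libraries (0.88, SE 0.18, adjusted p = 2.0e-04), and KYNU (0.59) was higher while KMO (-0.97) was lower.

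**Figure D3:**
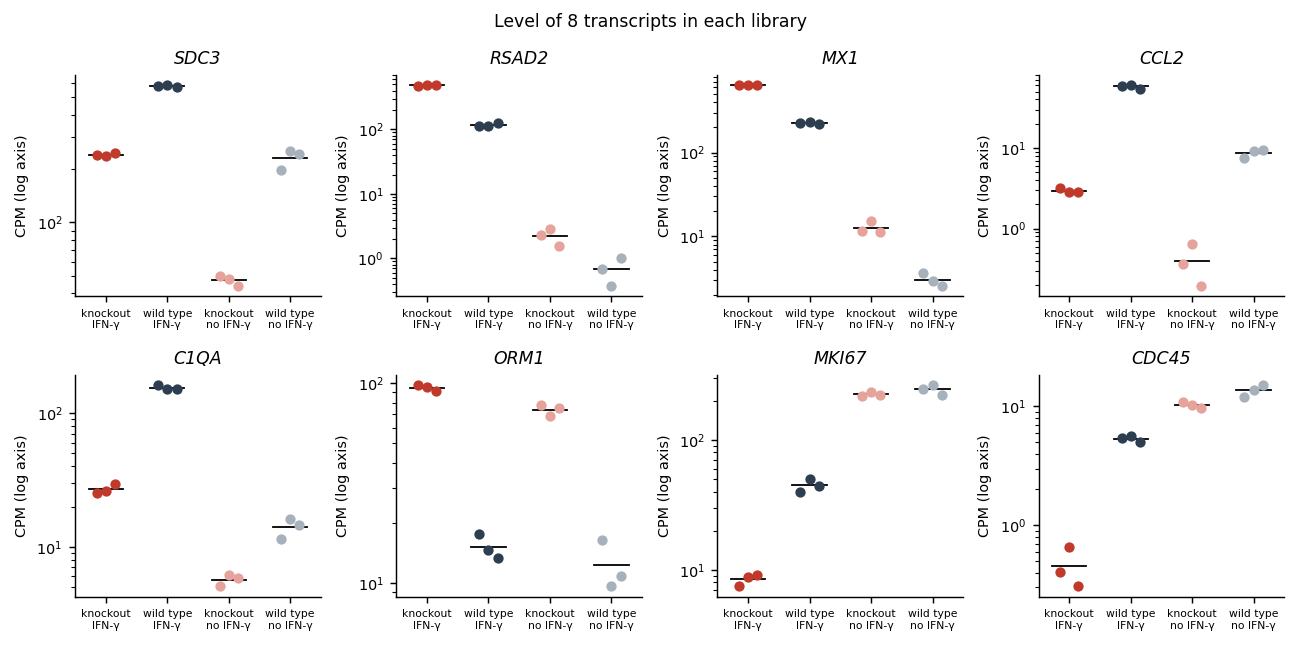
Level in CPM (vertical axes, log scale, a separate range for each gene) of 8 transcripts in each of the 12 libraries, by genotype and treatment (horizontal axis), with points for libraries and lines for group means. With IFN-γ the knockout libraries lie above the wild type for RSAD2, MX1 and ORM1 and below it for SDC3, CCL2, C1QA, MKI67 and CDC45, with no overlap.

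Chemokines divided into 2 directions. Of 36 listed genes 19 were tested, 7 were higher and 8 lower. CXCL10, which attracts activated T cells through CXCR3, stood at 576, 686 and 704 CPM in knockout and 237, 315 and 281 CPM in wild-type libraries. The lowest knockout library was above the highest wild-type library (1.24, SE 0.07, adjusted p = 1.7e-15). CXCL9 was at 608, 694 and 756 CPM in knockout and 359, 434 and 379 CPM in wild-type libraries (0.81), and CXCL11 averaged 44.2 ± 9.44 CPM in knockout and 16.5 ± 3.47 CPM in wild-type libraries (1.42). Without IFN-γ the 3 genes had at most 0.134 CPM in any library, so the 2 treatments could not be compared for them. The monocyte attractants went the other way. CCL2 stood at 3.16, 2.85 and 2.83 CPM in knockout and 58.5, 61.2 and 54.3 CPM in wild-type libraries. Every wild-type library was far above every knockout library (log2 difference -4.30, SE 0.12, adjusted p = 1.4e-23), and it was -4.44 without IFN-γ (test of the difference 0.15, SE 0.27, adjusted p = 0.8). CCL7 (-6.17) and CCL8 (-3.77), CCL2's neighbours on chromosome 17, also fell, while the other genes of their block had a median of -0.19. The list's median changed sign without WT_IFNG replicate 1 (0.10 with all libraries and -0.09 without it).

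Of 30 tested interleukins, TNF-family ligands and colony-stimulating factors 5 were higher and 12 lower. IL1B stood at 3.97, 4.64 and 4.28 CPM in knockout and 15.2, 13.1 and 13.6 CPM in wild-type libraries. It was lower in all knockout libraries (-1.70, SE 0.13, adjusted p = 8.8e-13) and more so than without IFN-γ (-0.46; test of the difference -1.24, SE 0.19, adjusted p = 1.1e-05). IL24 (-1.78) and TNFSF15 (-1.38) fell too. The interleukin-18 antagonist IL18BP, at 526 against 357 CPM (0.56), and TNFSF9 (0.66) rose. Cytokine receptors had 15 of 42 higher and 11 lower. The interleukin-3 receptor chain IL3RA averaged 35.7 ± 1.69 CPM in knockout and 10.3 ± 0.808 CPM in wild-type libraries (1.79, SE 0.08, adjusted p = 1.3e-17). IL12RB2 (1.03) was higher and its partner IL12RB1 (-0.87) lower. IL6R (0.83) was higher in a chromosome 1 block with a median of 0.56.

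Receptors for chemoattractants had 8 of 24 higher and 9 lower. CXCR4, the receptor of CXCL12, stood at 37.6, 36.6 and 35.2 CPM in knockout and 12.7, 14.9 and 15.2 CPM in wild-type libraries. All knockout libraries exceeded all wild-type libraries (1.35, SE 0.06, adjusted p = 2.1e-17). The genotype difference was 0.23 without IFN-γ (test of the difference 1.12, SE 0.08, adjusted p = 6.5e-12). The fractalkine receptor CX3CR1 averaged 5.73 ± 0.849 CPM in knockout and 29.4 ± 4.78 CPM in wild-type libraries (-2.36, SE 0.12, adjusted p = 6.9e-17). CMKLR1, the receptor of chemerin, was at 0.482 against 12.2 CPM (-4.65). The complement receptor gene C5AR2 (1.17) and the formyl peptide receptor gene FPR2 (1.003) rose in chromosome 19 blocks with medians of 0.36 and 0.54. C3AR1 (-0.71) fell in a chromosome 12 block at -0.25.

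Genes that report growth factor and guidance signals had no common direction. The AP-1, EGR and ERK feedback list had 12 of 31 higher and 10 lower, with JUN at -0.75 and SPRED1, an inhibitor of ERK signalling, at -1.43. BATF3 was higher with IFN-γ (0.53) and lower without it (-0.95; test of the difference 1.48, SE 0.29, adjusted p = 4.1e-04). Among growth factors and receptor tyrosine kinases, 10 of 32 were higher and 11 lower. The VEGF receptor gene FLT1 averaged 5.95 ± 0.285 CPM in knockout and 26.3 ± 1.34 CPM in wild-type libraries (-2.14, SE 0.10, adjusted p = 2.8e-17), the AXL and MERTK ligand GAS6 was at -1.38, and HGF was at 0.82. Semaphorins, plexins and ephrin genes had 9 of 43 higher and 17 lower, with EPHB2 at -2.08 and EPHA7 at 0.88 among the members at 5 CPM or more. Of the other syndecans, SDC2 averaged 148 ± 4.95 CPM in knockout and 242 ± 6.27 CPM in wild-type libraries (-0.71, SE 0.04, adjusted p = 1.4e-15). SDC4 was higher with IFN-γ (0.40) and lower without it (-0.54; test of the difference 0.93, SE 0.07, adjusted p = 1.1e-11). For SDC1 the totals were 0 and 13 counts, which puts the knockout at least 4.40-fold lower if 3 counts per group are taken as the floor.

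Replication and mitosis genes were mostly lower in the IFN-γ-treated knockout. Over 8 lists with 251 tested genes 163 were lower and 26 higher, with a median log2 difference of -0.51. A log2 difference of -1 or beyond was reached by 80 of them, against 7.15% of all tested genes. Without IFN-γ the same genes had 117 lower and 35 higher and a median of -0.16. The test of the difference was called in the lower direction for 113 genes, 107 of which were also called lower with IFN-γ, and in the higher direction for 7. Of these 251 genes 39 lie in the higher or lower chromosome blocks, and the median of the other 212 was -0.50. Genes higher in these lists included the origin recognition genes ORC2 (0.40) and ORC3 (0.45) and the histone chaperone gene ASF1A (0.45).

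At the first step of replication, 20 of 28 licensing and firing genes were lower and 3 higher (median -0.67). CDC45, a subunit of the replicative helicase, stood at 0.405, 0.651 and 0.306 CPM in knockout libraries and 5.45, 5.59 and 5.04 CPM in wild-type libraries. Every knockout library was far below every wild-type library (-3.56, SE 0.21, adjusted p = 3.6e-15). Without IFN-γ the difference was -0.41 (test of the difference -3.15, SE 0.25, adjusted p = 3.7e-11). CDC6, which loads the helicase, averaged 1.61 ± 0.431 CPM in knockout and 10.1 ± 1.20 CPM in wild-type libraries (-2.65). Fork and polymerase genes had 17 of 33 lower and 3 higher, a number that became 5 without KO_IFNG replicate 1. CLSPN, which links stalled forks to the checkpoint, was at -1.62.

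Nucleotide synthesis had 16 of 30 genes lower and 3 higher with IFN-γ, and 16 lower and 5 higher without it. The test of the difference was called downwards for 9 and upwards for 5. The list's summed level with IFN-γ overlapped between genotypes, at 1914 to 1978 CPM in the knockout and 1909 to 1965 CPM in the wild type. RRM2, the S-phase subunit of ribonucleotide reductase, stood at 1.38, 1.14 and 1.15 CPM in knockout and 11.7, 13.5 and 10.5 CPM in wild-type libraries. The groups did not overlap (-3.29, SE 0.15, adjusted p = 5.3e-18). Without IFN-γ its log2 difference was 0.00 (adjusted p = 0.98), and the test of the difference gave -3.29, SE 0.17, adjusted p = 2.5e-15. TYMS, the thymidylate synthase gene, averaged 0.979 ± 0.180 CPM in knockout and 9.09 ± 0.134 CPM in wild-type libraries (-3.21) in a chromosome 18 block with a median of -0.47, and TK1 was at -2.50. GART, a purine synthesis gene, was higher (0.80) in the chromosome 21 run (block median 0.31). MTHFD2, the mitochondrial folate enzyme, was also higher (0.38).

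Of the 51 lists the mitotic kinesin list had the lowest median. None of the 29 tested mitotic kinesin, spindle and cytokinesis genes was higher and 27 were lower, with a median of -1.54. Their summed level was 285.1, 294.9 and 283.6 CPM in the knockout and 486.2, 529.5 and 497.8 CPM in the wild type. Without IFN-γ the sums were 1571, 1606 and 1626 CPM in the knockout and 1882, 1815 and 1709 CPM in the wild type. All sums with IFN-γ were below all sums without it, and the knockout was below the wild type in both treatments. The difference of the genotype effects was called in the lower direction for 23 of the 29.

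MKI67, the gene of the proliferation antigen Ki-67, stood at 7.46, 8.88 and 9.10 CPM in knockout and 40.0, 50.01 and 44.0 CPM in wild-type libraries. Each knockout library was far below the lowest wild-type library (-2.40, SE 0.09, adjusted p = 1.6e-20). Its levels without IFN-γ were 218, 233 and 223 CPM in knockout and 247, 264 and 223 CPM in wild-type libraries, and they overlapped (-0.12, SE 0.06, adjusted p = 0.079). The test of the difference gave -2.27, SE 0.11, adjusted p = 1.1e-16. KIF23, a kinesin of the cleavage furrow, was at 0.810, 0.570 and 0.459 CPM in knockout and 5.33, 4.75 and 5.74 CPM in wild-type libraries (-3.10). The kinetochore and spindle checkpoint list had 25 of 37 lower and 3 higher (median -0.72), with the checkpoint kinase gene TTK at -2.23 and CENPF at -1.48. Cyclins, mitotic kinases and anaphase-promoting complex genes had 29 of 39 lower. The 7 higher became 4 without KO_IFNG replicate 1 or WT_IFNG replicate 1. CDK1, the kinase that starts mitosis, averaged 1.80 ± 0.0898 CPM in knockout and 8.95 ± 1.27 CPM in wild-type libraries (-2.31), BIRC5 was at -2.19, and cyclin B1, CCNB1, was at -0.71. Among cohesin, condensin and topoisomerase II genes 13 of 23 were lower, with TOP2A at 8.35, 9.37 and 8.95 CPM in knockout and 43.6, 52.1 and 42.6 CPM in wild-type libraries (-2.38) and the condensin gene NCAPG at -2.80. In homologous recombination and Fanconi anaemia genes 16 of 32 were lower, led by POLQ (-2.97), in a chromosome 3 block with a median of -0.26, and EXO1 (-2.75).

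**Figure D4:**
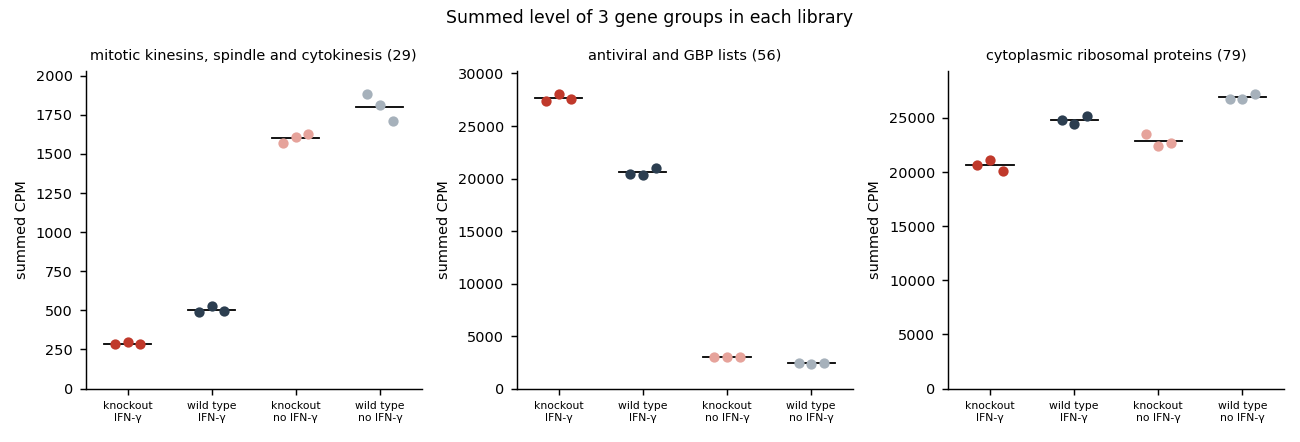
Summed CPM (vertical axes, from 0) of the tested genes of 3 groups in each library, by genotype and treatment (horizontal axis), with points for libraries and lines for group means. The mitotic genes are at 283.6 to 294.9 CPM in the knockout with IFN-γ and at 1709 to 1882 CPM in the wild type without it, the antiviral genes are higher and the ribosomal protein genes lower in the knockout in both treatments.

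Promoters of the mitotic kinesin list were searched for 2 patterns known from cell cycle genes, the CCAAT box of the factor NF-Y and the core of the cell cycle homology region. RefSeq windows were found for 27 of the 29 genes (31 windows). CCAAT, on either strand, occurred in 67.7% of them and in 32.3% of the windows of tested genes. TTTGAA, on either strand, occurred in 48.4% and 9.38%. In 290 windows of the 251 replication and mitosis genes (213 matched) these shares were 51.7% and 18.3%. Here too all tested list members were searched whatever their genotype difference, and the shares describe the lists and not the knockout. Windows of CDC45, RRM2, TYMS and KIF23, genes among the largest falls of the replication and mitosis lists, were examined. Those of CDC45, RRM2 and KIF23 are shown because they held a match, with both patterns and their reverse complements in capitals. The 150 bases before a RefSeq transcript start of CDC45 (plus strand, chr22:19479770-19479919), RRM2 (plus strand, chr2:10122589-10122738) and KIF23 (plus strand, chr15:69414199-69414348) read as follows. They lie inside the gene's span in the count table, for KIF23 in part.
CDC45: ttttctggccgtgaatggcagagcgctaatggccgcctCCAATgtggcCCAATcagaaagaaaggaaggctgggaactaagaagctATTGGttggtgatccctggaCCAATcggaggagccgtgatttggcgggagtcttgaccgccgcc
RRM2: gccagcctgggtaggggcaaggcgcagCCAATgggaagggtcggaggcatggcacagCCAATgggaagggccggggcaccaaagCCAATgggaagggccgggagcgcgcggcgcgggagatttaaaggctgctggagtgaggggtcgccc
KIF23: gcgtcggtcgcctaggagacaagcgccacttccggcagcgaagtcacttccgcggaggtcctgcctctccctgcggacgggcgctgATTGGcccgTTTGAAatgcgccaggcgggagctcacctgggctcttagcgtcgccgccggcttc
Of 3 windows of CDC45 and 2 of RRM2 the one with most matches is shown. CDC45 held 4 CCAAT letters or complements and RRM2 held 3. KIF23 held 1, with 1 TTTGAA beside it. The 150 bases before the RefSeq start of TYMS held neither.

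Regulators of the cycle moved in both directions. In the list of CDK inhibitors, D cyclins, RB and E2F families 11 of 36 were higher and 16 lower. MYBL2, an activator of late cell cycle genes, stood at 1.86, 2.16 and 1.38 CPM in knockout and 20.5, 24.0 and 17.5 CPM in wild-type libraries. Its groups did not overlap (-3.53, SE 0.13, adjusted p = 2.1e-20). The activator E2F1 (-2.56) fell in a chromosome 20 block with a median of -0.27, and E2F7, a repressor of the same family, fell as well (-2.33). CDKN1A, the gene of the CDK inhibitor p21, stood at 667, 647 and 647 CPM in knockout and 511, 484 and 463 CPM in wild-type libraries. It was higher in each knockout library (0.43, SE 0.04, adjusted p = 6.3e-11), without IFN-γ it was at 0.04, and the test of the difference gave 0.39, SE 0.06, adjusted p = 3.4e-06. The MYC antagonist MXD1 averaged 93.7 ± 2.12 CPM in knockout and 49.1 ± 1.39 CPM in wild-type libraries (0.93), against -0.13 without IFN-γ. In the list of p53 targets, which includes CDKN1A, 8 of 29 members were higher and 14 lower. The ubiquitin ligase gene MDM2 (-0.56) fell in a chromosome 12 block with a median of -0.58, the death receptor gene TNFRSF10B (-1.06) fell, and BTG1 (0.71) rose. UHRF1, which couples DNA methylation to replication, fell (-1.69), in a list of polycomb and DNA methylation genes with 8 of 30 higher and 9 lower.

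**Figure D5:**
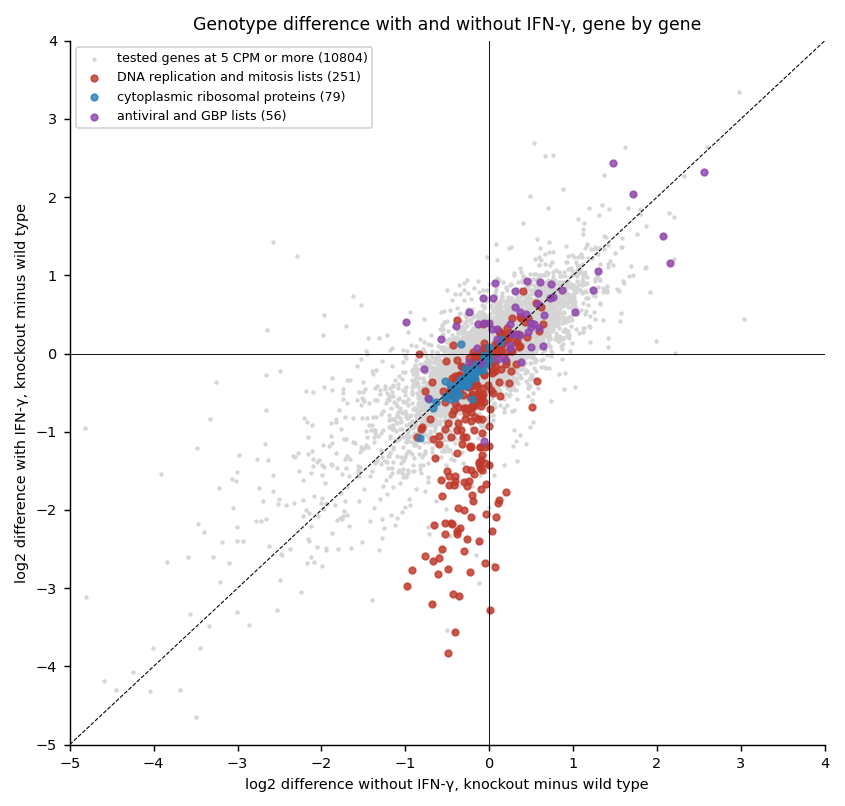
Log2 difference, knockout minus wild type, without IFN-γ (horizontal axis) and with IFN-γ (vertical axis); grey points are tested genes at 5 CPM or more in either genotype with IFN-γ, colours mark the replication and mitosis, ribosomal protein and antiviral genes, points beyond -5 or 4 are not drawn, and the dashed line marks equality. Many replication and mitosis genes lie below the line, with 113 of 251 called lower in the test of the difference, while antiviral genes lie on both sides of it.

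Macrophage effector genes had mixed directions, with large changes at single genes. In the complement list 10 of 26 were higher and 10 lower. The central component C3 stood at 886, 853 and 837 CPM in knockout and 369, 384 and 346 CPM in wild-type libraries. It was higher in all knockout libraries (1.23, SE 0.04, adjusted p = 4.5e-21). C1QA, a chain of the C1q recognition molecule, stood at 25.4, 26.2 and 29.7 CPM in knockout and 163, 152 and 151 CPM in wild-type libraries. Every wild-type library was above every knockout library (-2.52, SE 0.07, adjusted p = 1.3e-22), and the fall was larger than without IFN-γ (-1.31; test of the difference -1.20, SE 0.13, adjusted p = 3.0e-08). The complement receptor gene CR1 averaged 1.14 ± 0.0727 CPM in knockout and 6.88 ± 0.854 CPM in wild-type libraries (-2.58) and CLU was at -1.57. Tissue factor, F3, was at -0.82 with IFN-γ and -2.21 without it (test of the difference 1.39, SE 0.24, adjusted p = 7.8e-05), in a list with 6 of 23 higher and 8 lower.

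Redox genes leaned upwards, with 19 of 31 higher and 4 lower (median 0.24). SOD2, the mitochondrial superoxide dismutase, stood at 1920, 1983 and 2027 CPM in knockout and 1025, 1040 and 1085 CPM in wild-type libraries. The knockout was higher throughout (0.91, SE 0.04, adjusted p = 1.7e-19), and without IFN-γ the difference was 0.16 (test of the difference 0.75, SE 0.05, adjusted p = 2.8e-12). The cystine transporter SLC7A11 averaged 218 ± 4.01 CPM in knockout and 98.7 ± 6.78 CPM in wild-type libraries (1.14, SE 0.06, adjusted p = 7.9e-16). The oxidase subunits parted, with NCF1 at 0.71 and CYBB, the catalytic subunit, at 852 against 1265 CPM (-0.57). NCF1 has near-identical copies, so its count is uncertain. Haem oxygenase, HMOX1, was lower (-0.58).

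Among lysosomal hydrolases 22 of 42 were higher and 9 lower. FUCA1 averaged 491 ± 19.0 CPM in knockout and 222 ± 3.42 CPM in wild-type libraries (1.15). LGMN, a protease of antigen processing, averaged 12.2 ± 0.0772 CPM in knockout and 59.3 ± 2.14 CPM in wild-type libraries (-2.28, SE 0.08, adjusted p = 7.7e-21), and its fall was larger without IFN-γ (-3.40; test of the difference 1.13, SE 0.14, adjusted p = 3.3e-07). For lysosomal membrane and proton pump genes the counts were 20 higher and 10 lower of 42. The pump subunit ATP6V1B2 was at 0.59. SLC11A1, the metal transporter of phagosomes, stood at 3.32, 2.77 and 2.94 CPM in knockout and 31.3, 24.5 and 24.9 CPM in wild-type libraries. All its wild-type values were far above its knockout values (-3.16, SE 0.12, adjusted p = 7.3e-20), and it also stands in the iron list, where 8 of 28 were higher and 10 lower. Ferroportin, SLC40A1, was at 0.82.

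Uptake receptors had 12 of 36 higher and 17 lower. For CD93, a surface lectin-like receptor, the 3 knockout libraries together held 2 counts and the 3 wild-type libraries 2515. The ratio was 1276, and its exact counting interval at 95% ran from 352.9 to 10540. The gene lies in a chromosome 20 block with a median of -0.27. The mannose receptor MRC1 averaged 10.5 ± 1.99 CPM in knockout and 37.8 ± 3.60 CPM in wild-type libraries (-1.85, SE 0.10, adjusted p = 4.4e-16). CD163, the haemoglobin scavenger receptor, was at -1.26 in a chromosome 12 block at -0.25. ITGB5 was at -1.57 in a chromosome 3 block at -0.26. The scavenger receptor STAB1 averaged 76.8 ± 2.87 CPM in knockout and 35.8 ± 2.62 CPM in wild-type libraries (1.10, SE 0.07, adjusted p = 1.9e-14), and CD300LF was at 0.9965.

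Fc receptors, Siglecs and C-type lectins are clustered genes, and 9 of 44 lay in higher and 25 in lower chromosome blocks. In this list 11 were higher and 19 lower, and of the 10 genes outside such blocks 2 were higher and 6 lower. FCGR2A (0.9971) stood beside a block median of 0.42, and SIGLEC9 (-1.49) beside one of -0.26. FCER2, the low-affinity IgE receptor, lies outside them and averaged 10.3 ± 0.584 CPM in knockout and 34.1 ± 3.27 CPM in wild-type libraries (-1.72). Checkpoint and leukocyte Ig-like receptor genes were clustered as well, with 11 of 41 in higher and 16 in lower blocks. LILRB1, an inhibitory receptor for MHC class I, averaged 3.58 ± 0.470 CPM in knockout and 15.4 ± 1.92 CPM in wild-type libraries (-2.11) in a block at -0.39. CD274, which encodes the checkpoint ligand PD-L1, lies outside such blocks and was higher (0.64, SE 0.04, adjusted p = 2.2e-14).

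Granule genes of early myeloid cells leaned upwards, 12 of 25 being higher and 4 lower (median 0.66). PRTN3, the proteinase 3 gene, stood at 9.64, 7.90 and 7.65 CPM in knockout and 1.12, 1.29 and 1.48 CPM in wild-type libraries. The groups did not overlap (2.69, SE 0.15, adjusted p = 4.8e-16), and without IFN-γ the difference was 0.53 at levels of 37.2, 32.8 and 34.9 CPM in knockout and 23.9, 23.2 and 25.5 CPM in wild-type libraries. The genotype effects differed by 2.16, SE 0.17, adjusted p = 4.7e-11. CTSG (2.53) and ELANE (2.10), which encode cathepsin G and neutrophil elastase, rose as well. ORM1, an acute-phase protein gene, stood at 98.1, 95.5 and 91.9 CPM in knockout and 17.6, 14.6 and 13.4 CPM in wild-type libraries (2.65, SE 0.10, adjusted p = 1.0e-19); reads of ORM1 and its copy ORM2 cannot be divided with certainty. LYZ, lysozyme, stood at 231, 229 and 229 CPM in knockout and 527, 522 and 551 CPM in wild-type libraries. It was lower in all knockout libraries (-1.21, SE 0.04, adjusted p = 4.7e-22), in a chromosome 12 block with a median of -0.57. Myeloid transcription factors had 15 of 51 higher and 17 lower. MAF averaged 2.95 ± 0.798 CPM in knockout and 17.5 ± 1.74 CPM in wild-type libraries (-2.57, SE 0.14, adjusted p = 3.6e-16). BACH1 was higher (0.80) in the chromosome 21 run (block median 0.47), and PRDM1, which encodes BLIMP-1, was at 0.64.

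Matrix, protease and actin genes moved in both directions, with a large rise at MMP7. MMP7, a secreted metalloproteinase, stood at 62.5, 56.9 and 58.0 CPM in knockout and 12.8, 12.3 and 11.7 CPM in wild-type libraries. All knockout libraries were well above all wild-type libraries (2.27, SE 0.13, adjusted p = 1.2e-15). In its list 14 of 33 were higher and 5 lower, with the inhibitor TIMP1 at 0.63 and TIMP2 at -0.45. Matrix genes had 20 of 52 higher and 16 lower. The collagen genes parted, with COL1A1 at 17.4 against 7.93 CPM (1.13) and COL6A3 at 2.77 against 14.7 CPM (-2.41). Among podosome and actin genes 13 of 53 were higher and 22 lower, with vinculin, VCL, at 0.43 and the capping protein gene CAPG at -0.72.

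Lipid mediator and nucleotide signalling genes were lower at several members. The list of eicosanoid enzymes and receptors had 7 of 25 higher and 10 lower. ALOX5, the enzyme that opens leukotriene synthesis, averaged 33.8 ± 2.19 CPM in knockout and 68.1 ± 5.18 CPM in wild-type libraries (-1.01), and PLA2G7 was at -1.44, while LTA4H (0.58) and PTGS1 (0.57) were higher. CYSLTR2 was lower with IFN-γ (-1.16) and at 0.44 without it (test of the difference -1.60, SE 0.28, adjusted p = 9.2e-05). Purinergic receptors and nucleotide-degrading enzymes had 14 of 24 lower and 5 higher. P2RY12, an ADP receptor gene, stood at 1.22, 2.00 and 1.61 CPM in knockout and 10.2, 10.6 and 10.4 CPM in wild-type libraries. It was lower in each knockout library (-2.69, SE 0.21, adjusted p = 1.3e-12), without IFN-γ it was at 0.04, and the test of the difference gave -2.74, SE 0.36, adjusted p = 9.3e-07. ADA2, a secreted adenosine deaminase, averaged 59.7 ± 3.05 CPM in knockout and 168 ± 2.32 CPM in wild-type libraries (-1.49). In the inflammasome, caspase and BCL2 list 26 of 50 were higher and 12 lower, with pyrin, MEFV, at 0.90 and BCL2 at -1.45 in a chromosome 18 block with a median of -0.40.

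Ribosomal protein genes were mostly lower, by a small amount. Of 79 tested 68 were lower and 1 higher, with a median of -0.28 and of -0.24 without IFN-γ. Their summed level was 20680, 21110 and 20090 CPM in the knockout and 24780, 24490 and 25160 CPM in the wild type, with no overlap. None of the 79 was called in the test of the difference. Of the 71 genes outside the higher and lower blocks 62 were lower. Many have processed pseudogenes, so the counts of single genes are uncertain.

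Genes of the amino acid stress response differed in their counts between the treatments. The ATF4 targets, with serine synthesis and amino acid transport, had 20 of 41 higher and 10 lower with IFN-γ, and 11 higher and 17 lower without it. NUPR1, a stress-induced chromatin protein gene, stood at 402, 390 and 379 CPM in knockout and 121, 107 and 98.0 CPM in wild-type libraries. All knockout libraries were well above all wild-type libraries (1.85, SE 0.06, adjusted p = 2.4e-21). VLDLR was at 1.07. Aminoacyl-tRNA synthetases had 10 of 20 higher and 7 lower with IFN-γ, and 2 higher and 9 lower without it. AARS1 was higher with IFN-γ (0.42) but at -0.15 without it (test of the difference 0.57, SE 0.07, adjusted p = 2.0e-07). The test of the difference was called upwards for 17 ATF4-list genes and 7 synthetase genes, and downwards for 3 and 1. Chaperones of the endoplasmic reticulum had 19 of 30 higher and 4 lower, and the 4 became 2 without KO_IFNG replicate 3. HSPA5, the chaperone BiP, averaged 1594 ± 55.1 CPM in knockout and 1006 ± 9.02 CPM in wild-type libraries (0.67).

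Energy metabolism had no common direction. Glycolysis genes had 10 of 38 higher and 17 lower. FBP1, a gluconeogenesis enzyme gene, averaged 1.57 ± 0.290 CPM in knockout and 9.99 ± 0.457 CPM in wild-type libraries (-2.67, SE 0.13, adjusted p = 1.9e-17). PFKFB2, which sets the level of a glycolytic activator, was at -2.48. The glucose transporter SLC2A1 was higher with IFN-γ (0.47) and lower without it (-0.19; test of the difference 0.67, SE 0.08, adjusted p = 3.5e-07). GAPDH was at -0.26 in a chromosome 12 block at -0.25. Respiratory chain subunits had 21 of 72 higher and 11 lower. The ATP synthase subunit gene ATP5F1B was at -0.55 in a chromosome 12 block at -0.55. In the lipid list 15 of 51 were higher and 14 lower. PLTP, which transfers phospholipids between lipoproteins, averaged 111 ± 4.69 CPM in knockout and 244 ± 8.30 CPM in wild-type libraries (-1.13) in a chromosome 20 block at -0.29, and the desaturase FADS2 was at -1.04.

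Outside the lists, the largest falls were of genes nearly silent in the knockout. IGF2BP1, whose product binds messenger RNAs, was without a count in all 3 knockout libraries and had 1702 in the wild type. With 3 counts per group as the floor it was at least 576-fold lower. TSPYL5 was lower by at least 187-fold, and the phosphatase gene PTPN13 by at least 130-fold. Floors and intervals cover counting error only, and mates of 1 fragment were counted separately, so intervals are too narrow and floors too low. NAV3 averaged 4.24 ± 1.26 CPM in knockout and 77.8 ± 4.14 CPM in wild-type libraries (-4.19, SE 0.10, adjusted p = 3.3e-24), the chloride channel family gene CLIC6 was at -4.07 in a chromosome 21 block at 0.34, and PNMA2 was at -3.77. The largest rises outside the granule genes included the hyaluronan-binding protein gene TNFAIP6 (9.18 ± 1.499 CPM in knockout and 1.59 ± 0.0769 CPM in wild-type libraries; 2.53) and the histone methyltransferase family gene PRDM8 (1.86).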

How the data were processed

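Poly(A) RNA was sequenced from stranded libraries, per the labels' protocols. The values deposited were read counts per gene on hg38, which the authors made with featureCounts 2.0.3 for paired reads, primary alignments only and without chimeric pairs, per the file headers. No strand option stands there, so reads from opposite strands at 1 place are not separated. Both mates of a fragment were counted, which makes most low counts even. The submitters' processing notes name fastp 0.23.2, STAR 2.7.10b, BWA, Picard 2.27.5, Subread, FastQC and MultiQC 1.13. The sources used here do not give the aligner behind the counts or the annotation release.

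Symbols came from a reference table for 41445 genes and from GENCODE 29 for 365 more. Genes were filtered with filterByExpr, libraries were scaled by TMM, and a model with a term per group was fitted to all 12 libraries together, using edgeR 4.0.16 and its quasi-likelihood test. P-values were two-sided and adjusted over all genes tested by the Benjamini-Hochberg method. The SE is the log2 difference divided by the square root of the test's F. Depth limits precision: 3 counts are 0.115 to 0.122 CPM in a knockout library with IFN-γ. Between 28 and 34 Mb of chromosome 6, the MHC window, replicates scattered more. Single genes there are not described, except HLA-DRB6 and HLA-DQA1 among the flagged results. Some lists have members there, 4 in the complement list, and those that were tested are included in the list counts. Promoter windows were RefSeq's.

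Lists and members were chosen with earlier results of these data known. In each of 51 lists the rule named up to 3 rises and 3 falls with an adjusted p under 0.05, replicates that did not overlap and, in the group with more, a mean of 5 CPM or more. It added the 15 largest rises and falls over all genes, the 10 most positive and 10 most negative differences of the genotype effects and a fixed panel; some are left out for length. Alternatives were DESeq2 1.42.0, limma-voom (limma 3.58.1), RLE and upper-quartile scaling, no scaling, 2 other filters, only the compared libraries, each library left out, a replicate block, a log2 limit of 1 and, added after the data were seen, counts divided by 2. R 4.3.3, Python 3.11.15, pandas 2.3.3, numpy 2.4.6 and matplotlib 3.10.9 were used.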

Additional observations from a re-analysis of the deposited data

Results flagged for a closer look

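The genotype effect differed between the treatments in the interaction test for 2647 genes, and the 10 most positive and 10 most negative of these with at least 5 CPM in 1 group are listed here with the difference of the log2 effects (with IFN-γ minus without). Both effects share libraries with this difference. Positive values were found for the membrane adaptor ANK2 (3.87), the adhesion receptor VCAM1 (3.54), the ERK phosphatase DUSP5 (2.94), BCAT1 (2.89), the macrophage growth factor CSF1 (2.49), SLAMF7 (2.46), SHISA2 (2.38), LAMP3 (2.36), HLA-DRB6 (2.27) and HLA-DQA1 (2.27). A positive value need not be a rise. ANK2 (-0.95 with IFN-γ and -4.82 without it), BCAT1 (-0.36 and -3.25), CSF1 and HLA-DQA1 (-1.21 and -3.48) were lower in both treatments. SHISA2 and HLA-DRB6 were lower without IFN-γ and not called with it. VCAM1, DUSP5, SLAMF7 and LAMP3 were higher with IFN-γ and lower without it. The DUSP5 call with IFN-γ was lost with DESeq2 and without WT_IFNG replicate 1. SHISA2 was called lower with IFN-γ when no scaling was used, with only the compared libraries and without WT_IFNG replicate 2. Summed over libraries, the knockout without IFN-γ held 8 counts each of ANK2, VCAM1, LAMP3 and HLA-DRB6 and 19 of HLA-DQA1, so these values are imprecise. VCAM1 stood at 58.7, 69.5 and 73.1 CPM in knockout and 24.2, 32.4 and 27.8 CPM in wild-type libraries with IFN-γ, all knockout libraries being higher, and at 0.0720, 0.0638 and 0.129 CPM in knockout and 0.229, 0.370 and 0.738 CPM in wild-type libraries without it. CSF1 stood at 64.2, 60.5 and 57.2 CPM in knockout and 122, 101 and 102 CPM in wild-type libraries with IFN-γ and at 20.7, 23.2 and 19.9 CPM in knockout and 177, 222 and 243 CPM in wild-type libraries without it, lower in the knockout in both. BCAT1 lies in a lower block of chromosome 12 (median of the block's other genes -0.27). SLAMF7 lies in a higher block of chromosome 1 (median 0.42), and the 2 HLA genes lie in the MHC window, where counts are uncertain.

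The negative values were those of IGF2BP1 (-4.33), E2F8 (-3.76), CDCA7 (-3.71), NEIL3 (-3.47), MCM10 (-3.33), RRM2 (-3.29), CDC45 (-3.15), MYBL2 (-3.02), PLPPR3 (-3.00) and E2F2 (-2.95). E2F8 and E2F2 are E2F factors, MCM10 and CDC45 act in replication, and NEIL3 is a DNA glycosylase. The value of IGF2BP1 depends on the prior count, since the knockout with IFN-γ had no count. PLPPR3 stood at 0.162, 0.285 and 0.0765 CPM in knockout and 1.04, 1.37 and 1.04 CPM in wild-type libraries with IFN-γ and at 22.8, 20.9 and 18.5 CPM in knockout and 16.1, 18.9 and 16 CPM in wild-type libraries without it, so the wild type was higher with IFN-γ and the knockout without it (0.28, SE 0.10, adjusted p = 0.019, edgeR).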

How the results depend on the processing

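The direction and call of 315 of 336 named genes were the same in each alternative run that tested them, the log2 limit of 1 left aside. Genes named from the lists were chosen for clear calls in the main fit, so this share does not extend to all called genes. Reversed values belonged to uncalled genes. CSF1R was at -0.0205 without scaling. The gene HPRT1 ranged from -0.156 to 0.0157 over the fits without 1 replicate. The gene SPI1 was at 0.00891 with DESeq2 and with RLE factors, at 0.000913 without a low-count filter and between -0.0351 and 0.0362 without 1 replicate. Calls numbered 8072 with IFN-γ, 8583 without it and 2647 for the difference. With a log2 limit of 1 they were 1598, 1562 and 458. Leaving out 1 replicate gave 7334 to 7598, 7635 to 8343 and 2215 to 2682. The replicate number pairs no samples by the labels. Each gene's group mean was subtracted from the log2 levels with IFN-γ, and what remained was correlated between knockout and wild-type libraries. Same-numbered libraries gave 0.0927, 0.0358 and 0.0781, and not every library correlated best with its own number. The replicate block gave 7983, 8500 and 2588 calls. Without scaling the calls with IFN-γ were 2887 higher and 5213 lower, against 3919 and 4153, and those for the difference 1000 and 1855, against 1302 and 1345. Without KO_IFNG replicate 2 the difference had 1361 and 941. Counts divided by 2, an alternative chosen after seeing the data, gave 7870, 8593 and 2686. Without scaling 6 list medians between 0.02 and 0.07 fell below 0. Low counts limit genes under about 5 CPM: requiring 5 CPM in 3 libraries left 5 of the 8 lower chemokines.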

Other observations

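A few of the largest rises fell outside the pathways described above. PCDHB5, a clustered protocadherin gene, averaged 15.6 ± 1.25 CPM in knockout and 3.18 ± 0.518 CPM in wild-type libraries (SD, n = 3; log2 difference 2.28, SE 0.12, adjusted p = 2.5e-16, edgeR), and reads of its close relatives may be divided uncertainly. CD1C, which presents lipid antigens, averaged 6.66 ± 0.234 CPM in knockout and 1.77 ± 0.435 CPM in wild-type libraries (log2 difference 1.91) in a chromosome 1 block with a median of 0.45. TMEM45A was at 5.11 against 1.41 CPM (1.86) and C22orf42 at 9.04 against 1.44 CPM (2.65). Falls of the same kind were those of the muscle creatine kinase gene CKM, at 0.132 against 5.91 CPM in a chromosome 19 block with a median of 0.41 that went the other way, and of SYNE1, a nuclear envelope spectrin, at 0.290 against 11.1 CPM (-5.22). Across the 10804 genes at 5 CPM or more, the log2 differences with and without IFN-γ had a Pearson correlation of 0.806, given as a description, since genes are not independent replicates.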
